A study of Mus musculus with 6 samples.

Results

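The genes described here are 10 members of the Notch signalling pathway, taken by symbol from the 53762 genes of the count files: the receptors Notch1, Notch2 and Notch3, the ligands Jag1 and Jag2, the target genes Hes1, Hey1, Hey2 and Heyl, and Lfng, a glycosyltransferase that modifies the receptors. All 10 symbols were found. RNA was sequenced from immortalized mouse embryonic fibroblasts, connective tissue cells grown from embryos, 24 hours after seeding in high-glucose medium with fetal bovine serum. There were 3 libraries of PME-1 knockout (KO) cells and 3 of wild-type (WT) cells. The Ppme1 gene encodes PME-1, an enzyme that demethylates the phosphatase PP2A. The genotype field of KO 2 and KO 3 names PME-2 and PME-3, while their titles name PME-1, and the titles were used. Neither the way the knockout was made nor the number of clones, embryos or cultures behind the libraries is given in the sources used here, so the p-values measure the spread between these libraries, which may be technical.

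Notch receptors sit in the cell membrane and bind ligands of the Jagged and Delta families on a neighbouring cell. Binding exposes the receptor to cleavage by ADAM10 and then by gamma-secretase, which frees the intracellular domain. In the nucleus this domain joins the DNA-binding protein RBPJ and a Mastermind protein and switches on genes of the HES and HEY families, which encode transcriptional repressors. Fringe enzymes such as the product of Lfng add a sugar to the receptors and change which ligands activate them. In mesenchymal cells Notch signalling is known for its part in cell fate choices, among them the formation of the cells that wrap blood vessels.

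The promoters of 7 of the 10 members were matched in the RefSeq promoter table (build GRCm38.p6), and the 250 bases before RefSeq's annotated start were read for each. The letters searched were TGGGAA, the core of the RBPJ binding motif, and its reverse complement TTCCCA. Of all 32851 promoters in the table, 21.6% held at least 1 match and 2.77% held at least 2 in the same window. Among the 7 members, Lfng held 2 matches and Hey2 held 1. Notch1, Notch2, Notch3, Jag1 and Jag2 held none of these letters. The promoters of Lfng and Hey2 are shown because they hold the matches, in capitals, and that of Notch1 because it is the member that passed the test for a change:
Lfng, chr5:140607091-140607340, plus strand: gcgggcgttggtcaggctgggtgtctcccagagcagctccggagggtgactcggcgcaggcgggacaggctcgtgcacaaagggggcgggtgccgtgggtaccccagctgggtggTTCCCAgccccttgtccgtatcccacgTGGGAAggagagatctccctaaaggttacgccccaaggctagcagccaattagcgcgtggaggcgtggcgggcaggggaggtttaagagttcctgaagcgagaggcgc
Hey2, chr10:30842784-30843033, minus strand: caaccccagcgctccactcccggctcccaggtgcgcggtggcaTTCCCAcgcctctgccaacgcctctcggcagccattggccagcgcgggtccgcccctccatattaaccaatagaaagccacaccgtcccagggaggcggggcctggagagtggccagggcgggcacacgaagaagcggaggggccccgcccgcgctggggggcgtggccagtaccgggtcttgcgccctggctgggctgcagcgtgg
Notch1, chr2:26503823-26504072, minus strand: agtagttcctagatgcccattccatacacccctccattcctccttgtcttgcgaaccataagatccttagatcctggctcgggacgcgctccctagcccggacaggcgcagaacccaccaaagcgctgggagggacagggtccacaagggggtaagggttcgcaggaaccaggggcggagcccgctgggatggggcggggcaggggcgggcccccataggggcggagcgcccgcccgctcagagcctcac
In Lfng the matches begin 135 and 108 bases before the start, lie on opposite strands and are 21 bases apart. The Lfng window also holds CACGTG, a palindrome known as an E-box, which begins 112 bases before the start and shares 2 bases with the second match. At least 1 CACGTG stands in 6.02% of all windows, and other forms of the E-box were not counted. A match describes the letters only.

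Total counts per library ran from 34450993 to 44116310. The effective library sizes after scaling ran from 34049117 to 43571899, so the floor of 3 counts corresponds to 0.0689 to 0.0881 CPM (counts scaled to a library of fixed size). Ppme1 was lower in every KO library, at 17.4 ± 2.14 CPM in KO and 81.9 ± 4.22 CPM in WT (SD, n = 3 each, log2 fold change -2.24, edgeR adjusted p = 0.000563). All KO libraries carried the Y-linked gene Ddx3y (58.4 to 71.8 CPM) with Xist, the RNA of the inactive X chromosome, at 0.117 to 0.31 CPM. All WT libraries had 0 Ddx3y counts and 370 to 490 CPM of Xist, so genotype cannot be told apart from the sex and origin of the cells in any comparison here. KO 1 and WT 1 stood apart from the other libraries of their groups. A chi-square test of the counts over genes gave 118 and 136.8 per degree of freedom for KO 1 against the other KO libraries, and 13.1 between KO 2 and KO 3. The same ratio was 115.2 and 128 for WT 1 and 12.7 between WT 2 and WT 3. Values without KO 1 and WT 1 are therefore given for the members and most of the named pathway genes whose calls they change. All 12 fibroblast markers passed the filter on low counts, with Fn1 the highest by mean level and Lum the lowest, at 0 counts in WT 1. Their summed level was 12948 to 15177 CPM in KO and 16043 to 22061 CPM in WT, and Col1a1, Pdgfrb and S100a4 fell in KO cells (edgeR adjusted p from 0.0209 to 0.0425). The list went both ways: Thy1 and Dcn were higher in every KO library than in any WT library without passing the test (edgeR adjusted p = 0.134 and 0.225). Of the markers of other cell types, Krt18, Krt8, Sox2 and Cspg4 rose and Acta2 and Map2 fell. The 10 epithelial markers summed to 127 to 147 CPM in KO and 8.77 to 32.1 CPM in WT, most of it Krt18 and Krt19 in KO, while Epcam and Cdh1 did not pass the test and Krt5, Krt14 and Esrp1 were at 0 throughout. Sums were, for the 8 neural and glial markers, 211 to 474 CPM in KO and 133 to 249 CPM in WT, and for the 8 blood cell markers 1.06 to 5.2 CPM in KO and 1.03 to 2.75 CPM in WT. Of 7 skeletal muscle markers, 6 had 0 counts everywhere. The part of these cell type markers in the results was not tested. The endothelial genes Tie1, Emcn and Cldn5 and the blood cell genes Cd3e, Adgre1 and Itgam had 0 counts in all 6 libraries.

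Levels of different genes were compared as CPM per kilobase of exon. By this measure Notch2 was the highest member, at 14.1 ± 1.57 in KO and 19.8 ± 2.07 in WT. Next came Hes1, at 10.4 ± 0.944 in KO and 13.5 ± 2.67 in WT, and Lfng, at 6.9 ± 1.69 in KO and 12.7 ± 1.64 in WT. Notch1 followed at 3.87 ± 0.263 in KO and 8.68 ± 1.73 in WT, then Notch3 at 1.91 ± 1.9 in KO and 2.71 ± 1.6 in WT, and Jag1 at 0.892 ± 0.0513 in KO and 1.54 ± 0.366 in WT. Hey1, Hey2 and Jag2 averaged at most 0.594 in either group. Within KO, the neighbours Notch2, Hes1, Lfng and Notch1 did not overlap over the libraries, while Notch3 overlapped both Notch1 and Jag1. Within WT, Hes1 and Lfng overlapped each other, and Notch3 overlapped Jag1. Hey1 and Hey2 overlapped in both groups. Heyl, a HEY family repressor, had 0 counts in all 6 libraries, which allows up to the floor of 3 counts in each.

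Across the 10 members, Notch1 fell in KO cells and was the only one past the threshold, an edgeR adjusted p of 0.05 over all 15223 genes tested. Of the 9 members tested, 1 fell, 0 rose and 8 did not pass, and Heyl was not tested. Over all genes 7.4% were called, 3.86% as lower and 3.55% as higher, so 1 of 9 is near the background. Hey1 was the only tested member with a positive change, and its unadjusted p was not under 0.05. DESeq2 and limma-voom also called 0 members higher. DESeq2 called 4 members, all lower, where it called 15.8% of all genes, and limma-voom called 2, where it called 7.74%. The median log2 fold change was -0.51 over the 9 members, against 0.01 over all genes tested, and 8 of the 9 values were negative. In 5 of the 9, namely Notch1, Notch2, Jag1, Hes1 and Lfng, every KO library lay below every WT library. The groups did not overlap in this direction in 15.4% of all genes tested, and in either direction in 30%.

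**Figure D1:**
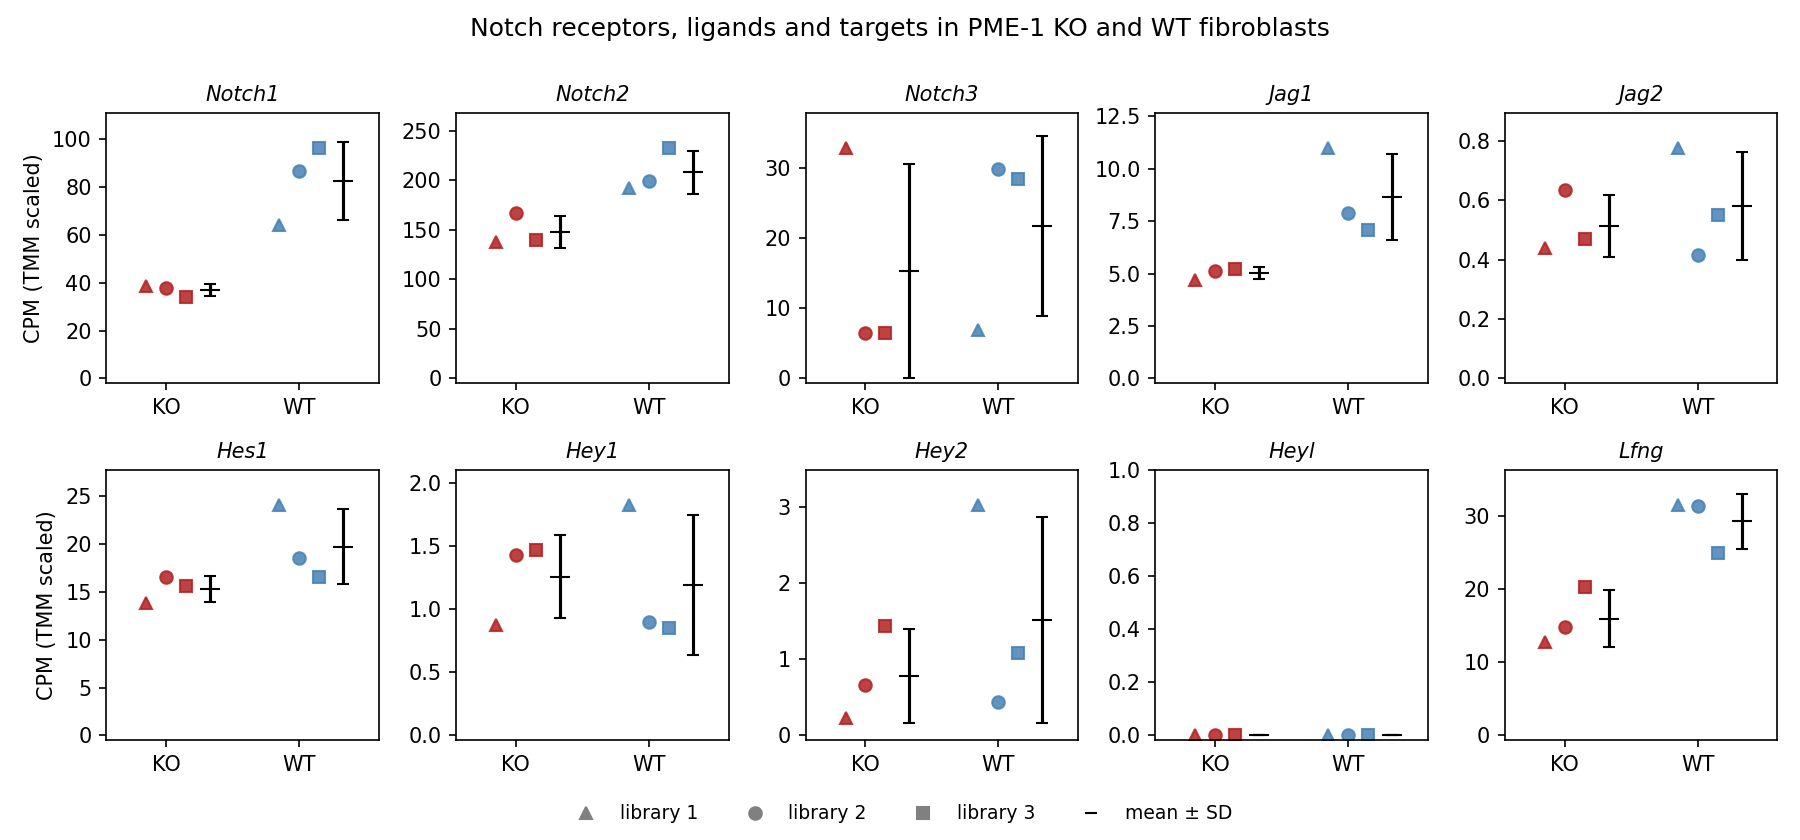
CPM of the 10 members in each library, with KO left of WT in each panel, the library number given by the marker shape, and mean ± SD beside the points. The KO points of Notch1 (34.0 to 38.7 CPM) all lie below the WT points (64.2 to 96.2 CPM), while Notch3 is high in KO 1, WT 2 and WT 3 and low in KO 2, KO 3 and WT 1.

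Among the receptors, Notch1 was measured at 38.7, 37.6 and 34.0 CPM in KO libraries 1 to 3 and at 64.2, 86.6 and 96.2 CPM in WT libraries 1 to 3. The KO libraries were close together and all lay below the lowest WT library, WT 1. The mean was 36.8 ± 2.49 CPM in KO and 82.3 ± 16.4 CPM in WT, a 2.24-fold lower level in KO (log2 fold change -1.16, SE 0.17, edgeR adjusted p = 0.0108). In bulk RNA, fewer cells that express a gene and less RNA per cell cannot be told apart. Notch1 is annotated on the minus strand of chromosome 2 (26457903 to 26516663, GENCODE M21, GRCm38), a span that holds the promoter window printed above. The annotated opposite-strand gene within its span with the most reads, 0610009E02Rik, had at most 21 counts in any library. The change in Notch1 was negative in all 15 alternative settings, from -1.35 to -1.04, but of the 6 fits that left out 1 library, 3 lost the call, those without KO 2 (edgeR adjusted p = 0.0594), without KO 3 (0.0613) and without WT 2 (0.0538). Without KO 1 and WT 1 it was -1.35 (edgeR adjusted p = 1.62e-07), in a setting that called 48% of all genes.

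Notch2, the most abundant receptor transcript, was measured at 138, 167 and 139 CPM in KO libraries 1 to 3 and at 192, 199 and 233 CPM in WT libraries 1 to 3. The groups did not overlap, and KO 2 was the KO library nearest to WT. The log2 fold change was -0.49 (SE 0.13). It did not pass the threshold in edgeR (adjusted p = 0.0749) or limma-voom (adjusted p = 0.0692), while DESeq2 called it (adjusted p = 0.0097). The plus strand of chromosome 3 carries Notch2 (98013527 to 98150361).

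Notch3, a receptor known for its role in vascular smooth muscle, divided the libraries across the genotypes. It was measured at 32.9, 6.52 and 6.52 CPM in KO libraries 1 to 3 and at 6.96, 29.8 and 28.4 CPM in WT libraries 1 to 3. KO 1 was thus high with WT 2 and WT 3, and WT 1 was low with KO 2 and KO 3. Over all 6 libraries the log2 fold change was -0.51 with an SE of 0.79 (edgeR adjusted p = 0.769). Without KO 1 and WT 1 it was -2.16 (SE 0.13, edgeR adjusted p = 1.35e-07), and without KO 1 alone -1.74 (edgeR adjusted p = 0.147). KO 1 and WT 1 are the libraries that crossed the genotypes for Notch3, and they were left out because they stood apart in these data. The fit without them called 48% of all genes, and its small p cannot tell genotype apart from this grouping of the libraries. The summed level of 10 smooth muscle and pericyte markers was 209, 392 and 407 CPM in KO libraries 1 to 3 and 1193, 414 and 412 CPM in WT libraries 1 to 3, and their part in this result was not tested. Most of that sum was Acta2, the smooth muscle actin, which fell in KO (edgeR adjusted p = 0.0425), and Tagln. Cspg4, a pericyte marker in the same list, rose, at 74 ± 2.03 CPM in KO and 33.3 ± 5.19 CPM in WT (edgeR adjusted p = 0.00494), while Kcnj8 and Abcc9, markers of pericytes, had 0 counts in every library. Notch3 is annotated on the minus strand of chromosome 17 (32120820 to 32166852).

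Taken per kilobase, the 4 mammalian receptors summed to 20.6 ± 2.2 CPM per kilobase in KO and 31.4 ± 5.04 in WT, and the groups did not overlap (18.1 to 22.4 in KO, 26.1 to 36.1 in WT). Notch1 made up 18.9% ± 0.775 of this sum in KO and 27.5% ± 1.37 in WT, with no overlap between the groups. The share of Notch2 was 68.9% ± 9.14 in KO and 63.7% ± 5.79 in WT, which overlapped. Notch3 made up 18.3%, 3.84% and 4.48% in KO libraries 1 to 3 and 3.33%, 11.6% and 9.82% in WT libraries 1 to 3. The share of Notch4, a receptor known from endothelium, was 5.06%, 2.3% and 2.58% in KO libraries 1 to 3 and 0.452%, 0.515% and 0.608% in WT libraries 1 to 3. These shares were described without a test.

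**Figure D2:**
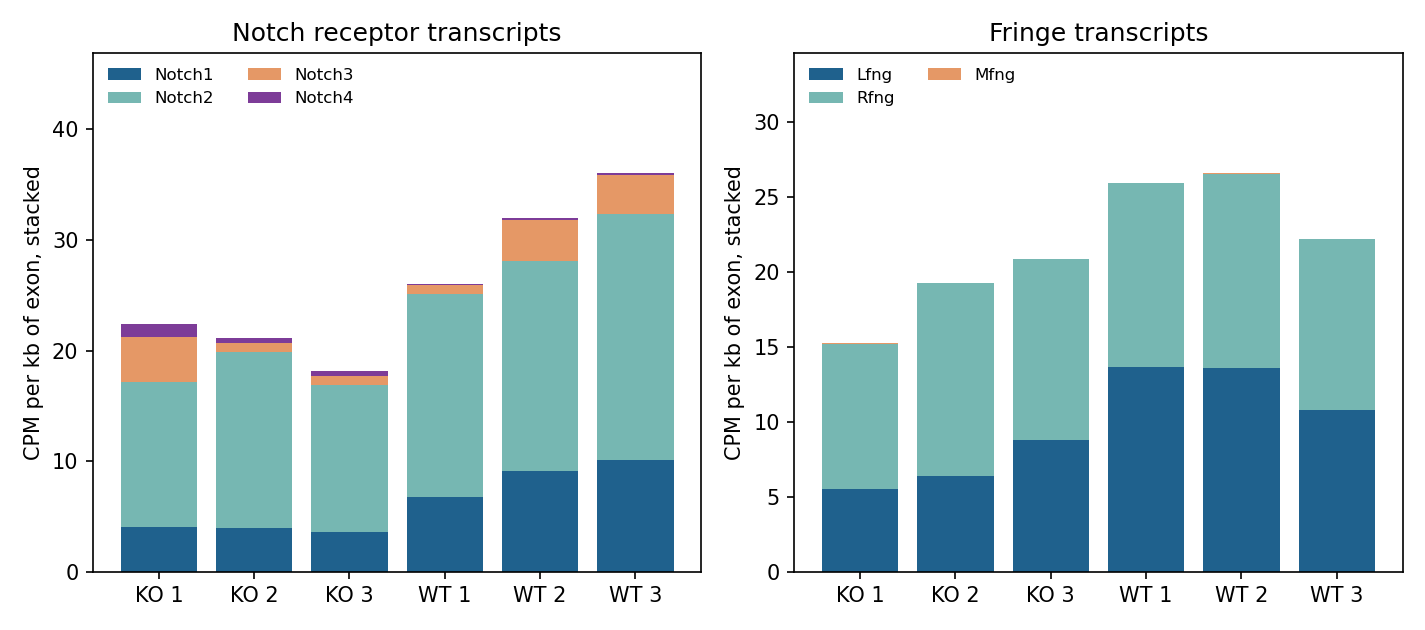
Stacked CPM per kilobase of exon of the 4 Notch receptors (left) and the 3 fringe enzymes (right) in each library, KO libraries first. The receptor columns reach 18.1 to 22.4 in KO and 26.1 to 36.1 in WT, and the Lfng part is smaller in every KO library than in any WT library, while the Rfng parts of the groups overlap.

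Jag1 and Jag2 encode ligands of the Jagged family. Jag1 was measured at 4.68, 5.11 and 5.23 CPM in KO libraries 1 to 3 and at 11.0, 7.9 and 7.09 CPM in WT libraries 1 to 3. The KO libraries lay close together and below all WT libraries, of which WT 1 was the highest. The log2 fold change was -0.79 (SE 0.23). It did not pass in edgeR (adjusted p = 0.098) or limma-voom (adjusted p = 0.108), while DESeq2 called it (adjusted p = 0.018). Jag1 is annotated on the minus strand of chromosome 2 (137081456 to 137116644). Jag2 stood at 0.44, 0.633 and 0.47 CPM in KO and 0.777, 0.416 and 0.551 CPM in WT, from 16 to 28 counts per library, and the groups overlapped (log2 fold change -0.17, SE 0.48, edgeR adjusted p = 0.879). Of the Delta ligands, Dll1 had 36, 6 and 8 counts in KO libraries 1 to 3 and 4, 20 and 20 in WT libraries 1 to 3, and made up 22% of the ligand sum per kilobase in KO 1. The others were near the floor, with Dll3 at 0, 0 and 4 counts in KO and 0 in WT, and Dll4 at 0 counts in KO and 0, 7 and 0 in WT. Of the sum of Jag1, Jag2, Dll1, Dll3 and Dll4 per kilobase, Jag1 thus supplied 70.7% to 84.8% in KO and 84.3% to 91.4% in WT. Dlk1, Dlk2 and Dner were not in this sum. Dlk2 averaged 5.73 ± 3.36 CPM per kilobase in KO and 1.97 ± 1.62 in WT, against 0.892 and 1.54 for Jag1.

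Lfng, the lunatic fringe enzyme, was measured at 12.7, 14.8 and 20.3 CPM in KO libraries 1 to 3 and at 31.5, 31.3 and 24.9 CPM in WT libraries 1 to 3. The groups did not overlap, with KO 3 the nearest to WT. Its level averaged 15.9 ± 3.9 CPM in KO and 29.2 ± 3.78 CPM in WT, and the log2 fold change of -0.88 (SE 0.21) lay just outside the threshold in edgeR (adjusted p = 0.0537). Both DESeq2 (adjusted p = 0.00255) and limma-voom (0.041) called it. The gene, whose promoter with its pair of RBPJ core motifs is printed above, is annotated on the plus strand of chromosome 5 (140607320 to 140615545). Rfng, the radical fringe enzyme, averaged 24.4 ± 3.51 CPM in KO and 25.8 ± 1.63 CPM in WT (log2 fold change -0.08, SE 0.15, edgeR adjusted p = 0.808), and Mfng had at most 7 counts in any library. Per kilobase, Lfng made up 37.2% ± 4.53 of the fringe transcripts in KO and 50.9% ± 2.05 in WT, with no overlap between the groups.

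Hes1, a classical target gene of the pathway, was measured at 13.8, 16.5 and 15.6 CPM in KO libraries 1 to 3 and at 24.1, 18.6 and 16.6 CPM in WT libraries 1 to 3. The groups did not overlap, but KO 2 and WT 3 were almost level and WT 1 stood above the rest. Its log2 fold change was -0.37 (SE 0.18, edgeR adjusted p = 0.299), and -0.13 (SE 0.13, edgeR adjusted p = 0.466) without KO 1 and WT 1. DESeq2 and limma-voom did not call it either. Hes1 is annotated on the plus strand of chromosome 16 (30064384 to 30067796).

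The HEY family targets were low. Hey1 had 34, 61 and 50 counts in KO libraries 1 to 3 and 66, 39 and 37 in WT libraries 1 to 3, and the groups overlapped (log2 fold change 0.08, SE 0.46, edgeR adjusted p = 0.944), and without KO 1 and WT 1 the value was 0.72 (edgeR adjusted p = 0.249). Hey2 had 9, 28 and 49 counts in KO and 109, 19 and 47 in WT. In CPM, WT 1 was the highest library for both genes. The log2 fold change of Hey2 was -0.96 with an SE of 0.88 (edgeR adjusted p = 0.587). Leaving out WT 1 gave 0.03, and leaving out KO 1 as well gave 0.45. Low counts in these files are clumped: 401 to 496 genes per library had exactly 2 counts and 635 to 694 had exactly 4, and low counts were not read as independent molecules.

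**Figure D3:**
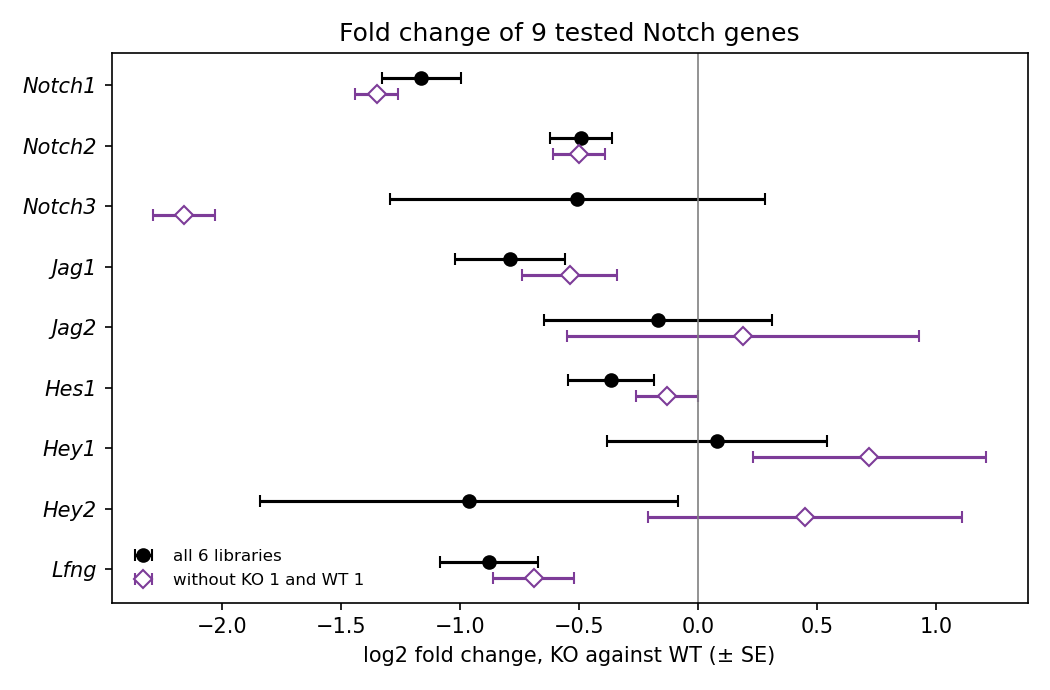
Log2 fold change (KO against WT) ± SE of the 9 tested members with all 6 libraries (filled circles) and without KO 1 and WT 1 (open diamonds). Notch1, Notch2, Jag1, Hes1 and Lfng lie left of 0 in both, Notch3 goes to -2.16 with a small SE without these libraries, and Hey2 and Jag2 change sign.

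Without KO 1 and WT 1, 5 of the 9 members were called lower and 0 higher, namely Notch1, Notch2, Notch3, Jag1 and Lfng by edgeR. Notch2 was at -0.5 (edgeR adjusted p = 0.00668), Jag1 at -0.54 (0.041) and Lfng at -0.69 (0.00749). In that setting 24.6% of all genes were called lower and 23.3% higher, so the calls are frequent throughout. By root mean square difference of centred log2 CPM over the 6 libraries, the genes nearest in pattern to Notch1 among 10761 genes were Pald1 (0.056), Pde3b (0.068), Gab1 (0.087), Col1a1 (0.093) and Nedd4 (0.096).

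The other genes of the pathway, a list of 71 chosen by role, gave 63 that were tested, of which 5 fell, 1 rose and 57 did not pass. Taken in either direction, that is close to the 7.4% called over all genes, where 3.86% were called lower and 3.55% higher. Of the 5 that fell, 4 lie in a stretch of chromosome 9 described below. The median log2 fold change of the list was -0.15, against 0.01 over all genes tested.

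Of the proteases and their partners, 2 of 10 fell, where 3.86% of all genes were called lower. Adam10, the protease that makes the first ligand-dependent cut in Notch, was measured at 157, 164 and 149 CPM in KO libraries 1 to 3 and at 332, 378 and 395 CPM in WT libraries 1 to 3. Every KO library held less than any WT library (log2 fold change -1.23, SE 0.11, edgeR adjusted p = 0.00218). Aph1b, a subunit of gamma-secretase, averaged 25.3 ± 2.99 CPM in KO and 48.4 ± 6.18 CPM in WT (log2 fold change -0.93, SE 0.15, edgeR adjusted p = 0.0146), and its call was lost without KO 2 (0.0706), without WT 2 (0.0706) and without WT 3 (0.0745). Aph1b and its neighbour Aph1c are near-identical copies, so the division of reads between them is uncertain. All 10 genes of this role had a negative log2 fold change, as had 7451 of all 15223 genes tested. Without KO 1 and WT 1 edgeR called 9 of the 10 lower, where it called 24.6% of all genes lower. Adam10, Aph1b and Aph1c lie in the stretch of chromosome 9 described below.

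In the nuclear complex 0 of 9 genes passed in edgeR, where 2 had an unadjusted p under 0.05, and DESeq2 called 1 and limma-voom 0. Those 2 were the Mastermind gene Maml3 (log2 fold change -1.06, edgeR adjusted p = 0.0919) and Snw1 (-0.23, 0.224). Without KO 1 and WT 1, Maml3 was at -1.53 (edgeR adjusted p = 2.87e-05) and Snw1 at -0.24 (0.0151). Rbpj, which carries the complex on DNA, averaged 94.2 ± 13.6 CPM in KO and 75.9 ± 15.7 CPM in WT (edgeR adjusted p = 0.38), and Ep300, a histone acetyltransferase, 160 ± 25.6 CPM in KO and 153 ± 12.9 CPM in WT (0.86). Without KO 1 and WT 1, edgeR called 4 of the 9 higher and 3 lower, among them Rbpj (log2 fold change 0.6, adjusted p = 4.74e-05) and Ep300 (0.25, adjusted p = 0.00505). In that setting 23.3% of all genes were called higher and 24.6% lower. Rbpj and Ep300 crossed the genotypes, each higher in KO 2, KO 3 and WT 1 than in KO 1, WT 2 and WT 3. Of 15 corepressors edgeR called 1, Tle3, a Groucho family corepressor that fell to 80.7 ± 19.5 CPM in KO against 146 ± 11.3 CPM in WT (log2 fold change -0.85, SE 0.19, edgeR adjusted p = 0.0464). That call was lost without any single library other than KO 1, with edgeR adjusted p-values from 0.0543 to 0.169. DESeq2 called 2 corepressors lower, and without KO 1 and WT 1 edgeR called 6 lower and 3 higher. Tle5 had the highest CPM of the corepressors, a level not corrected for length. It averaged 404 ± 99.6 CPM in KO and 470 ± 108 CPM in WT (log2 fold change -0.22, edgeR adjusted p = 0.656). By library it was 518, 335 and 359 CPM in KO 1 to 3 and 345, 537 and 528 CPM in WT 1 to 3. KO 1 and WT 1 thus crossed the genotypes, and without them the log2 fold change was -0.62 (edgeR adjusted p = 2.61e-06).

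Ubiquitin ligases and endocytic adaptors act on ligand and receptor turnover, and 2 of the 15 tested fell, where 3.86% of all genes were called lower. Neurl1a, whose Drosophila counterpart neuralized is a ubiquitin ligase that drives Delta endocytosis, was measured at 1.66, 1.5 and 1.47 CPM in KO libraries 1 to 3 and at 8.79, 9.22 and 8.4 CPM in WT libraries 1 to 3. Its KO libraries were far below its WT libraries, with little spread in either group (log2 fold change -2.51, SE 0.21, edgeR adjusted p = 0.00159). Nedd4, a ubiquitin ligase with many substrates, averaged 1710 ± 59.9 CPM in KO and 3759 ± 384 CPM in WT (log2 fold change -1.14, SE 0.13, edgeR adjusted p = 0.00394). EdgeR called 7 of the 15 lower and 1 higher without KO 1 and WT 1, where it called 24.6% of all genes lower and 23.3% higher.

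Of the 5 pathway genes that fell, 4 lie between 55 and 75 Mb of chromosome 9 (GRCm38): Tle3 starts at 61372366, Aph1b at 66775202, Adam10 at 70678997 and Nedd4 at 72662346. This stretch was first picked out on these data for its low values. In it 71 of 178 tested genes fell, or 39.9%, and the median log2 fold change was -0.75. Neurl1a, on chromosome 19, is the exception, and all 10 members lie on other chromosomes. Whether the position on chromosome 9 has a part in the 4 lower levels was not tested.

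Notch4 rose in KO cells and was the only pathway gene that edgeR called higher over all 6 libraries. DESeq2 called 2 higher, limma-voom called 1, which was Nrarp, and edgeR without KO 1 and WT 1 called 13. That last setting called 23.3% of all genes higher. Notch4 was measured at 7.48, 3.21 and 3.08 CPM in KO libraries 1 to 3 and at 0.777, 1.09 and 1.45 CPM in WT libraries 1 to 3. KO 1 was the highest, and the groups did not overlap. The log2 fold change was 2.05 (SE 0.47, edgeR adjusted p = 0.0485), or 1.31 without KO 1 and WT 1. The call was lost without any single library (edgeR adjusted p from 0.0673 to 0.171) with limma-voom (0.0709), with upper-quartile factors (0.0526), with no scaling factors (0.0597) and with no filter on low counts (0.0513). It was lost in 11 of 14 alternatives, and the adjusted p ranged from 0.00058 to 0.31 over all alternatives. The summed level of 10 endothelial markers was 8.8, 5.49 and 4.7 CPM in KO libraries 1 to 3 and 3.74, 4.87 and 4.52 CPM in WT libraries 1 to 3, and its part in this result was not tested. Of the 3 of these markers that were tested, only Tek, an endothelial receptor, rose (edgeR adjusted p = 0.0241). It averaged 1.54 ± 0.686 CPM in KO and 0.192 ± 0.0746 CPM in WT. Erg, at 3.28 ± 1.53 CPM in KO and 3.05 ± 1.31 CPM in WT, and Kdr did not pass (edgeR adjusted p = 0.93 and 0.869). Tie1, Emcn and Cldn5 were at 0.

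Nrarp, a feedback inhibitor that Notch itself induces, was measured at 4.27, 5.58 and 5.35 CPM in KO libraries 1 to 3 and at 1.08, 2.56 and 1.31 CPM in WT libraries 1 to 3. It was higher in every KO library than in any WT library, with a log2 fold change of 1.61 (SE 0.39) just outside the threshold in edgeR (adjusted p = 0.0552), while DESeq2 (0.000986) and limma-voom (0.0342) called it, as did edgeR without KO 1 and WT 1 (1.49, adjusted p = 0.00282). Hes6 averaged 15.2 ± 4.68 CPM in KO and 15.3 ± 3.73 CPM in WT (edgeR adjusted p = 0.989). By library, Hes6 was at 20.6, 17.9 and 17.0 CPM in KO 1, WT 2 and WT 3. KO 2, KO 3 and WT 1 were lower, at 12.4, 12.6 and 11.0 CPM. Without KO 1 and WT 1, which crossed the genotypes, the log2 fold change of Hes6 was -0.48 (edgeR adjusted p = 0.0111). Genes Hes2, Hes3 and Hes5 had at most 4 counts in any library. Among the remaining ligands, Dlk2, a Delta-like protein that lacks the DSL domain of the activating ligands, was measured at 4.04, 14.9 and 17.4 CPM in KO libraries 1 to 3 and at 8.04, 2.89 and 1.56 CPM in WT libraries 1 to 3. KO 1 lay below WT 1, and the groups overlapped (log2 fold change 1.54, SE 0.74, edgeR adjusted p = 0.281). Without KO 1 and WT 1 the value was 2.86 (edgeR adjusted p = 1.13e-05). Of 7 tested glycosyltransferases other than Lfng, 0 passed in edgeR, 1 had an unadjusted p under 0.05, and DESeq2 called 1 and limma-voom 0. Without KO 1 and WT 1, where 48% of all genes were called, edgeR called 2 of the 7 lower and 2 higher. Gxylt1, a xylosyltransferase with the highest CPM of these genes, averaged 80.9 ± 22.5 CPM in KO and 81.1 ± 13.2 CPM in WT. It crossed the genotypes, higher in KO 2, KO 3 and WT 1 than in KO 1, WT 2 and WT 3. Without KO 1 and WT 1 its log2 fold change was 0.35 (edgeR adjusted p = 0.00181).

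**Figure D4:**
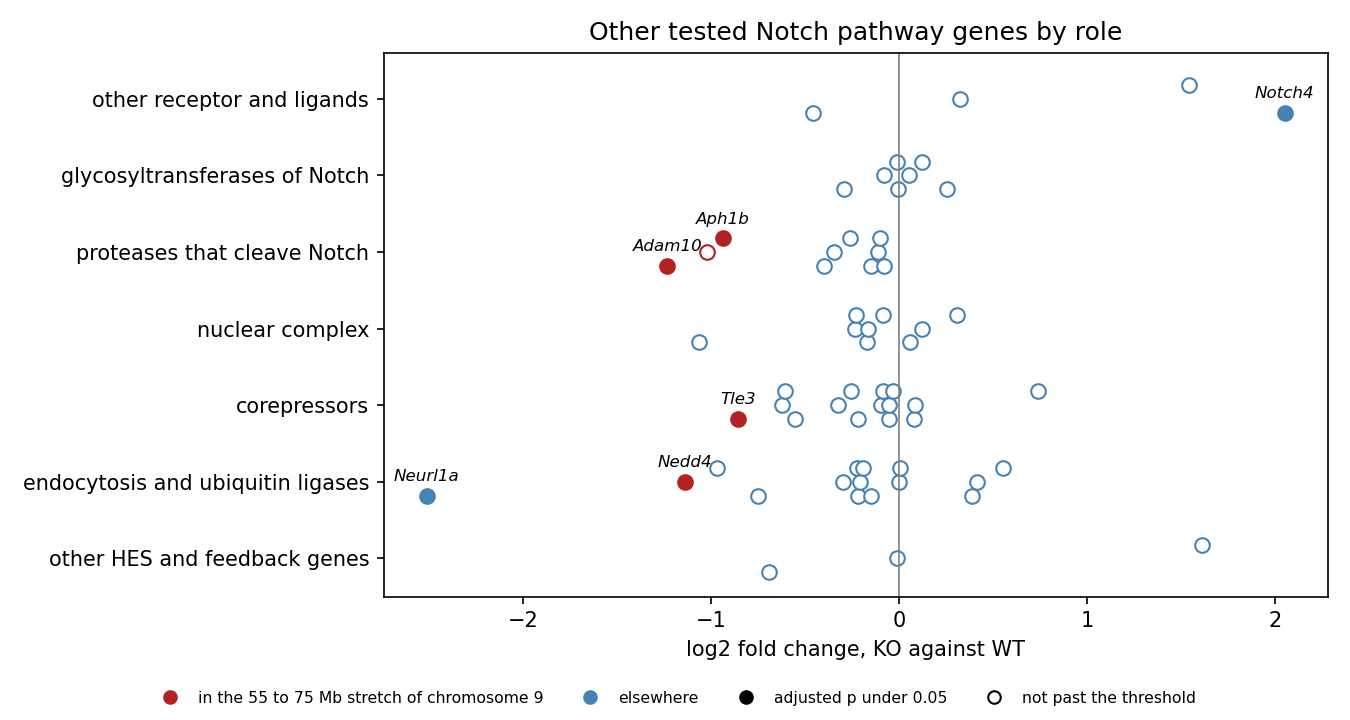
Log2 fold change (KO against WT) of the 63 tested pathway genes that are not among the 10 members, by role, with filled points for genes past the threshold and red points for genes in the chromosome 9 stretch. Of the 5 filled points left of 0, all but Neurl1a are red, and Notch4 at 2.05 is the only filled point right of 0.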

How the data were processed

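RNA of 3 KO and 3 WT libraries was measured. The authors deposited raw read counts per gene symbol, 1 file per library. Libraries were made with a directional kit, per the labels' protocols. Per the submitters' processing notes, reads went through Trim Galore 0.6.6 and HISAT2 2.2.1. How reads were counted, and on which strand and annotation, is not given in the sources used here. A human build is listed beside mouse gene symbols, so positions and merged exon lengths of coding transcripts come from GENCODE M21 (GRCm38).

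The main test was the robust quasi-likelihood fit of edgeR 4.0.16 (R 4.3.3, genes kept by filterByExpr, TMM factors, no block) with Benjamini-Hochberg adjustment over all genes tested. The code was tested on simulated data. CPM values use TMM factors, and the SE is the log2 fold change divided by the square root of F. Floors cover counting error only. Alternatives were DESeq2 1.42.0, limma-voom (limma 3.58.1), other scalings and filters, the replicate block, each library left out, and leaving out KO 1 and WT 1. Members and lists were chosen with earlier results of these data known. Named genes are Ppme1, the members, pathway genes past the threshold and the highest of each role, marker genes that passed and averaged 1 CPM or more, the highest and lowest fibroblast marker, and the 5 genes nearest to Notch1 in pattern. Rfng, Rbpj, Maml3, Snw1, Nrarp, Tek, Kdr, Erg, Thy1, Dcn, Krt19, Epcam, Cdh1 and Tagln were chosen after their values were seen. So were the sex-linked genes, the markers at 0 and genes near the floor.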

Additional observations from a re-analysis of the deposited data

How the results depend on the processing

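Over all genes, 1127 were called, 540 higher and 587 lower. DESeq2 called 2406 (1195 higher, 1211 lower), the fit with the replicate number as a block called 8 (3 and 5), and the fit without KO 1 and WT 1 called 7408 (3605 and 3803). The replicate numbers are not said to pair libraries, so they were not taken as pairs in the main fit. Deviations from the group means correlated at -0.51, -0.31 and -0.22 between same-numbered libraries of KO and WT. Deviations within a group sum to 0, so the libraries that stand apart shape all of these correlations. They cannot decide whether the numbers are pairs. Over all genes tested, KO 1 deviated from its group mean with WT 2 and WT 3 (correlations 0.39 and 0.3). In the same way WT 1 deviated with KO 2 and KO 3 (0.36 and 0.32). The fit without KO 1 and WT 1 therefore cannot tell genotype apart from this grouping of the libraries. Leaving out 1 library gave 332 to 1216 calls, 170 to 556 higher and 162 to 660 lower. Of the members, 1 was called, against 4 with DESeq2, 2 with limma-voom, 5 without KO 1 and WT 1, 0 to 1 with 1 library left out (0 without KO 2, KO 3 or WT 2, with 4 at an unadjusted p under 0.05 each time) and 0 with the replicate block, where 3 had an unadjusted p under 0.05. Of the other pathway genes 6 were called, against 13 with DESeq2, 41 without KO 1 and WT 1, 3 to 6 with 1 library left out and 0 with the replicate block, where 9 had an unadjusted p under 0.05. The log2 fold changes of Notch1, Notch2, Notch3, Jag1, Hes1 and Lfng were negative in all 15 alternatives, whether or not they passed, with Notch3 at -0.11 without KO 2. With the replicate block the calls of Notch1 (edgeR adjusted p = 0.15) and Notch4 (0.31) were lost. Signs changed for Jag2 (-0.37 to 0.1 with 1 library left out, 0.19 without KO 1 and WT 1), Hey1 (-0.12 to 0.53 with 1 library left out) and Hey2 (-1.75 to 0.03 with 1 library left out, 0.45 without KO 1 and WT 1). Gxylt1 was 0.01 with DESeq2 and with median-ratio factors, 0.06 with upper-quartile factors, 0.05 with no scaling factors, 0.02 at a mean of at least 5 CPM, -0.15 to 0.21 with 1 library left out and 0.35 without KO 1 and WT 1. Hes6 was 0.01, 0.01, 0.07, 0.06 and 0.03 in the first 5 of these and -0.29 to 0.13 with 1 library left out, and -0.48 without KO 1 and WT 1. With 1 library left out Ep300 ranged from -0.02 to 0.18 and Rfng from -0.16 to 0.03, and Rfng was 0.03 without KO 1 and WT 1. The cause of these differences was not tested. Hey1, Hey2, Jag2 and Heyl had too few reads for small differences to be seen.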
